A study of Mus musculus with 30 samples.

Results

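Red cell membrane and blood group genes were read in macrophages and monocytes of the mouse spleen. The 8 genes, Slc4a1, Rhag, Rhd, Ermap, Kel, Sptb, Ank1 and Epb42, were chosen by name from the red cell membrane. All 8 were found among the 37991 gene identifiers of the count table, and all 8 were among the 11030 that passed the filter on low counts. All 6 TLR7.1 RPM libraries lay above that filter's limit of 8.64 CPM (counts scaled to library size) for each of the 8 genes, and the genes could pass on these libraries alone.

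The libraries came from the spleens of 12 female mice. Of these, 6 were TLR7.1 mice, which overexpress the RNA sensor Tlr7, and were 10 to 15 weeks old. The other 6 were WT B6 mice of 9.4 to 15.7 weeks. From each TLR7.1 mouse iHPC (inflammatory hemophagocytes), RPM (red pulp macrophages) and Mono (Ly6Chi monocytes) were sorted, and from each WT mouse RPM and Mono, which gave 5 groups of 6 libraries with 500 cells in each. iHPC were CD31hi, VCAMlow, F4/80low and CD11b+, RPM were CD31low, VCAMhi and F4/80+, and Mono were Ly6C+, Ccr2+ and CD11b+. All gates took CD45.2+ cells without SiglecF or Ly6G, and the gates given name no erythroid surface marker. How the Tlr7 overexpression is driven is not given in the sources used here. There were no iHPC from WT mice, so iHPC were compared within the TLR7.1 genotype only.

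Totals ran from 292507 to 1420486 counts in iHPC, from 268275 to 1257240 in TLR7.1 RPM and from 1157446 to 1719010 in TLR7.1 Mono. They ran from 95002 to 1511480 in WT RPM and from 1209266 to 1932427 in WT Mono. Tlr7 lay between 497 and 1531 CPM in the 18 libraries of TLR7.1 mice and between 107 and 384 CPM in the 12 libraries of WT mice. The libraries of both genotypes did not overlap. The sum of 10 red pulp macrophage markers was 7571 CPM or more in every RPM library and 2754 CPM or less elsewhere. That of 8 Ly6C-high monocyte markers was 4950 CPM or more in every Mono library and 369 CPM or less elsewhere. Both lists include genes of markers used in the sort, among them Vcam1, Ly6c2 and Ccr2, so the separation follows from the sort in part.

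The red cell membrane is a lipid bilayer held to a spectrin skeleton. Slc4a1 (band 3) exchanges chloride for bicarbonate and anchors a complex in which ankyrin, the product of Ank1, ties it to the beta spectrin chain made by Sptb, with protein 4.2, the product of Epb42, bound alongside. Rhag, an ammonium transporter relative, and Rhd carry the Rh complex, Kel is an endopeptidase that bears the Kell antigens, and Ermap is an adhesion molecule that bears the Scianna antigens. Erythroblasts transcribe these genes as they mature, and the splenic red pulp is both a site of erythropoiesis in mice and the place where macrophages take up worn red cells.

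Promoter sequence from RefSeq (GRCm38.p6) was at hand for 6 of the 8 genes. The 4 shown here hold both of the short motifs searched for, GATAA, the core bound by GATA factors, and CACCC, the core bound by Klf1. Each line gives the 150 bases before the annotated start, 5′ to 3′ on the gene's own strand. Capitals mark GATAA or its reverse complement TTATC, and CACCC or its reverse complement GGGTG.

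Rhag (chr17:40810999-40811148, plus strand): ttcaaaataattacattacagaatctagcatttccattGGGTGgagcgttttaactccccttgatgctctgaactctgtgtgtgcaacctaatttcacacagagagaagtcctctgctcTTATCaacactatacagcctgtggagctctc
Rhd (chr4:134864386-134864535, plus strand): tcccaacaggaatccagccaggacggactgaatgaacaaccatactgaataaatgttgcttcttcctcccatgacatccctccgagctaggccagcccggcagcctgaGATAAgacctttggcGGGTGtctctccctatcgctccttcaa
Ermap (chr4:119189996-119190145, minus strand): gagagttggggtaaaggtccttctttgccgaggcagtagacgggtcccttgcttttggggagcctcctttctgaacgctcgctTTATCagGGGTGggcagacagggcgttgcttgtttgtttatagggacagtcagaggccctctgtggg
Kel (chr6:41704326-41704475, minus strand): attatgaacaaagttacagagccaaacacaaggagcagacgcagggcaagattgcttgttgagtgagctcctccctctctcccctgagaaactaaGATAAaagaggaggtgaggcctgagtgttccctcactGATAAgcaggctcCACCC

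In windows of 300 bases (250 before the start and 50 after), 25.4% of all 32817 promoters held GATAA on either strand, 57.5% held CACCC and 12.6% held both. Rhag, Rhd, Ermap and Kel held both, Sptb held CACCC alone and Epb42 held GATAA alone. The Ermap matches began 67 and 60 bases before the start, and those of Kel 55, 18 and 5 bases before it. In Rhag they began 112 and 31 bases before the start, and in Rhd 42 and 27 bases before it, with another CACCC just after it. No 2 matches overlapped. These are letter matches in a window and say nothing of binding.

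RPM from TLR7.1 mice held far more of this RNA than any other group. The 8 genes summed to 708, 828 and 1108 CPM (lowest, median and highest library) in TLR7.1 RPM. In iHPC the sum was 26.2, 145.5 and 253 CPM, in TLR7.1 Mono 0, 4.67 and 19.8 CPM, in WT RPM 0, 61.3 and 193 CPM, and in WT Mono 0.654, 3.18 and 5.76 CPM. The lowest TLR7.1 RPM library stood above the highest library of every other group. The sums of iHPC and WT RPM overlapped over most of their ranges. In counts the sums rested on 793 reads for iHPC, 4175 for TLR7.1 RPM, 59 for TLR7.1 Mono, 243 for WT RPM and 28 for WT Mono. In bulk libraries such as these, fewer cells of a type and less RNA per cell cannot be told apart.

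**Figure D1:**
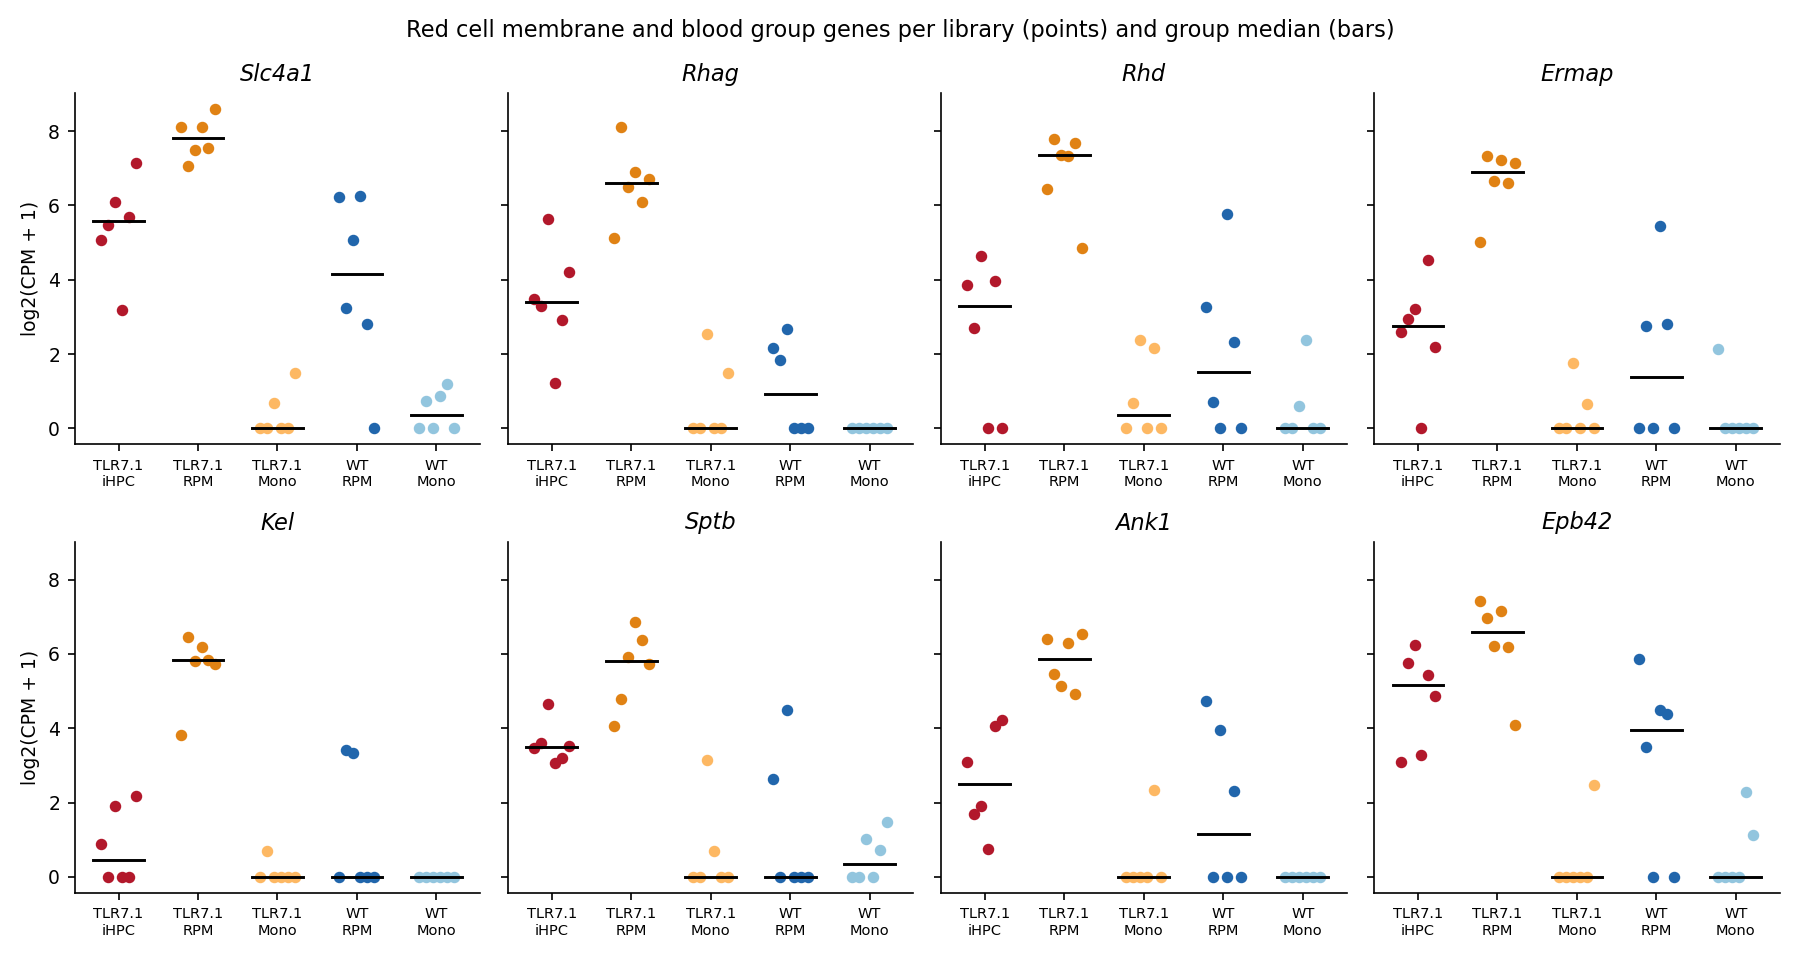
Level of each of the 8 genes on a log2(CPM + 1) scale (vertical axis) in the 5 groups (horizontal axis), with 1 point per library and a bar at the group median. The orange points of TLR7.1 RPM are the highest cloud in every panel, and the Mono medians are at or close to 0.

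The comparison of RPM from TLR7.1 and WT mice asks how the genotype changes these genes in 1 sorted population. All 8 genes were higher in TLR7.1 RPM (edgeR quasi-likelihood test, adjusted p under 0.05 over all 11030 genes), where 4.48% of all genes tested were called higher and 8.25% were called in either direction. Tested without the filter on low counts, 7 of the 8 were called, where 3.83% of 20439 genes were called in either direction. The median log2 difference was 3.63 over the 8 genes and -0.01 over all genes tested. For 4 of the 8 the 2 groups did not overlap, against 1.08% of all genes tested. The SEs and p-values rest on a spread estimated over all 30 libraries. A fit on the 2 RPM groups alone called 2.01% of all genes it tested. A fit on the 2 Mono groups alone called 7.46%, against 2.1% in the shared fit.

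Among the transporters, Slc4a1 read 132, 229.9 and 383 CPM (lowest, median and highest) in TLR7.1 RPM, against 0, 20.4 and 74.9 CPM in WT RPM. Every TLR7.1 library lay above every WT library, and the log2 fold change was 3.07 ± 0.585 (SE, n = 6 mice per genotype; edgeR adjusted p = 9.63e-04). Rhag, the core of the Rh complex, read 33.9, 96.5 and 275 CPM in TLR7.1 RPM, against 0, 1.29 and 5.40 CPM in WT RPM. The groups again did not overlap, with a log2 fold change of 5.52 ± 0.885 (edgeR adjusted p = 2.46e-04). Its 631 pooled reads in TLR7.1 RPM stood beside 9 in WT RPM, so that the WT level is known only roughly.

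Among the blood group proteins, Rhd read 27.9, 162 and 219 CPM in TLR7.1 RPM, against 0, 2.31 and 53.5 CPM in WT RPM. The overlap came from the WT library of mouse 24323, which had 95002 counts in all and 5 of Rhd, and the log2 fold change was 4.92 ± 0.939 (edgeR adjusted p = 9.65e-04). Ermap, the Scianna protein, read 31.3, 119.9 and 160.4 CPM in TLR7.1 RPM, against 0, 2.90 and 42.8 CPM in WT RPM. The same shallow WT library, with 4 Ermap reads, was the only one of that group within the TLR7.1 range, and the log2 fold change was 4.57 ± 0.872 (edgeR adjusted p = 9.65e-04). Kel, the Kell endopeptidase, read 13.0, 55.7 and 86.0 CPM in TLR7.1 RPM, against 0, 0 and 9.65 CPM in WT RPM. The groups did not overlap and 4 of 6 WT libraries were at 0, with a log2 fold change of 3.70 ± 0.758 (edgeR adjusted p = 0.00261).

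Next came the skeleton and its anchors. Sptb, the beta spectrin chain, read 15.6, 55.4 and 115 CPM in TLR7.1 RPM, against 0, 0 and 21.6 CPM in WT RPM (log2 fold change 3.56 ± 0.899, edgeR adjusted p = 0.0114). Only the WT library of mouse 24214, with 12 Sptb reads, reached into the TLR7.1 range. Sptb shares exon sequence with Plekhg3 on the opposite strand, and since the strand setting of the counting is not given in the sources used here, reads of the pair may be mixed.

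Ank1, the anchor of band 3, read 29.3, 59.9 and 91.7 CPM in TLR7.1 RPM, against 0, 1.99 and 25.8 CPM in WT RPM. The groups did not overlap, and the log2 fold change was 2.84 ± 0.881 (edgeR adjusted p = 0.043). Epb42, which binds band 3 and ankyrin, read 16.0, 98.4 and 172 CPM in TLR7.1 RPM, against 0, 15.1 and 56.8 CPM in WT RPM. Here the groups overlapped, and the log2 fold change was 2.48 ± 0.761 (edgeR adjusted p = 0.0383). Both calls stood close to the threshold: leaving out 1 mouse at a time ended each of them in 10 of 12 fits, with adjusted p reaching 0.0864 for Ank1 and 0.0849 for Epb42. The log2 fold change stayed between 2.49 and 3.87 for Ank1 and between 2.19 and 3.49 for Epb42 in those fits. The edgeR fit on the 2 RPM groups alone called neither Ank1 (adjusted p = 0.0726) nor Epb42 (adjusted p = 0.0856). DESeq2 did not call Epb42 (adjusted p = 0.115).

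By collection date, the mean of each of the 8 genes was higher in TLR7.1 RPM on all 3 days. With a date term in the edgeR fit Ank1 lost its call (log2 fold change 2.73, adjusted p = 0.0646). The summed level differed by a log2 value of 3.41 on 13 December, 2.27 on 21 December, when there was 1 WT mouse, and 5.74 on 26 December. These are differences of mean log2(CPM + 1), and the WT library of mouse 24416, of 26 December, had a sum of 0. The mean sums of that day were 809 CPM in TLR7.1 RPM and 40.9 CPM in WT RPM.

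iHPC, sorted from the same mice, were set against TLR7.1 RPM to ask how a second phagocyte of these spleens differs. Of the 8 genes, 7 were lower in iHPC and none was higher (edgeR, adjusted p under 0.05), where 13.5% of all genes tested were called lower and 27.1% in either direction. The median log2 difference was -2.98 over the 8 genes and 0.00 over all genes tested. For 4 of the 8, Rhd, Ermap, Kel and Ank1, every iHPC library lay below every TLR7.1 RPM library, against 5.09% of all genes tested.

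**Figure D2:**
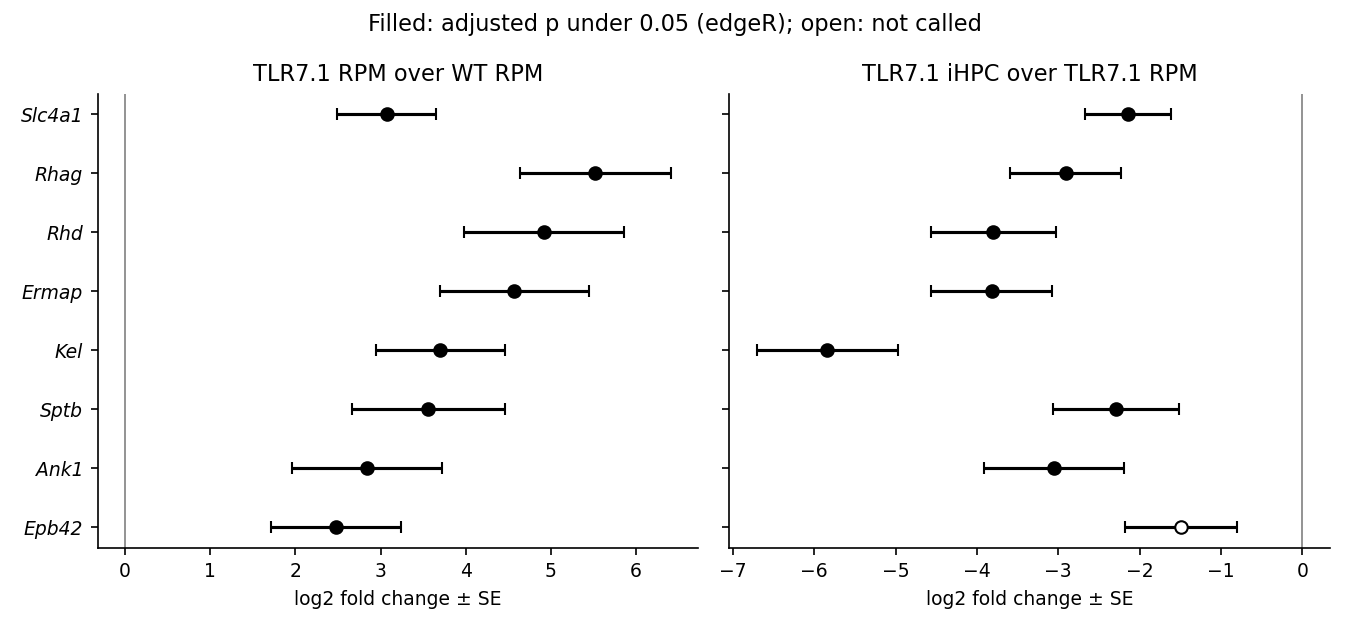
Log2 fold change with its SE (horizontal axis) of the 8 genes (rows) for TLR7.1 RPM over WT RPM (left) and TLR7.1 iHPC over TLR7.1 RPM (right). All 8 filled points lie right of 0 on the left, and on the right all lie left of 0 with Epb42 as the only open one.

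Kel stood lowest in iHPC, at 0, 0.422 and 3.52 CPM against 13.0, 55.7 and 86.0 CPM in TLR7.1 RPM. Its 5 pooled iHPC reads came from 3 of 6 libraries, and the log2 fold change was -5.84 ± 0.865 (edgeR adjusted p = 5.61e-06). Ermap read 0, 5.86 and 22.1 CPM in iHPC, below all TLR7.1 RPM libraries (log2 fold change -3.82 ± 0.747, edgeR adjusted p = 1.75e-04). Rhd read 0, 9.52 and 24.1 CPM in iHPC, with 2 libraries at 0 and a log2 fold change of -3.80 ± 0.768 (edgeR adjusted p = 2.61e-04). Ank1 read 0.671, 5.18 and 17.6 CPM in iHPC, and its log2 fold change was -3.05 ± 0.858 (edgeR adjusted p = 0.0078).

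Slc4a1 read 8.05, 47.0 and 141 CPM in iHPC, and its highest library passed the lowest TLR7.1 RPM library. The log2 fold change was -2.14 ± 0.530 (edgeR adjusted p = 0.00234). Rhag read 1.34, 9.50 and 49.0 CPM in iHPC, also with an overlap (log2 fold change -2.91 ± 0.679, edgeR adjusted p = 0.00159). Sptb read 7.38, 10.3 and 24.1 CPM in iHPC, a log2 fold change of -2.29 ± 0.774 (edgeR adjusted p = 0.0252) that lost its call without mouse 24304 (adjusted p = 0.142) or mouse 24308 (adjusted p = 0.0874). Epb42 was not called: it read 7.59, 35.3 and 74.0 CPM in iHPC, overlapping with the TLR7.1 RPM range, with a log2 fold change of -1.49 ± 0.690 (edgeR adjusted p = 0.112). With limma-voom and the mouse as a random term it was called, at a log2 fold change of -1.95 (adjusted p = 0.00447).

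Within mice the picture was the same for most genes. All of Slc4a1, Rhag, Rhd, Ermap, Kel, Sptb and Ank1 were lower in the iHPC library than in the RPM library of the same mouse in 6 of 6 mice, whereas Epb42 was lower in 4 and higher in 2. Per mouse, the log2 difference of Kel had a median of -4.87, that of Slc4a1 -1.72 and that of Epb42 -0.97. The summed level was lower in iHPC by a log2 value of -3.01 on 13 December, -3.82 on 21 December and -1.76 on 26 December, with 2 mice on each day. The lowest iHPC sum, 26.2 CPM, and the highest RPM sum, 1108 CPM, came from the same mouse, 24304.

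The makeup of the membrane gene reads was taken over the pooled libraries of a group. Slc4a1 and Epb42 together led in iHPC, with 33.4% and 26.5% of the 793 reads, and in WT RPM, with 34.6% and 25.1% of the 243 reads, while in TLR7.1 RPM they took 22.3% and 11.5% of the 4175 reads. Mouse 24028 gave 101 of the 243 WT RPM reads, among them 43 of 84 for Slc4a1 and 33 of 61 for Epb42. Rhd took 8.20% of the reads in iHPC, against 18.7% of those in TLR7.1 RPM, and 5.35% of those in WT RPM. The Rhag share was 11.1% for iHPC, 15.1% for TLR7.1 RPM and 3.70% for WT RPM, and the Kel share 0.631% for iHPC, 6.90% for TLR7.1 RPM and 8.23% for WT RPM.

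By library, the Slc4a1 share ran from 26.7% to 63.5% in iHPC and from 12.4% to 44.2% in TLR7.1 RPM, and the Epb42 share from 8.65% to 40.7% in iHPC and from 1.84% to 24.3% in TLR7.1 RPM. The Rhd share ran from 0% to 15.4% in iHPC and from 3.23% to 25.8% in TLR7.1 RPM, and the Rhag share from 4.08% to 19.4% in iHPC and from 4.78% to 25.8% in TLR7.1 RPM. All 4 overlapped between these groups. The Kel share ran from 0% to 1.59% in iHPC and from 1.84% to 8.07% in TLR7.1 RPM, without overlap. In the 5 WT RPM libraries that held any of these reads it ran from 0% to 25.9%. There the Slc4a1 share ran from 15% to 42.6% and the Epb42 share from 0% to 50%, both overlapping with TLR7.1 RPM. Per kilobase of exon, Slc4a1 was the highest of the 8 in iHPC, at a mean of 11.7 CPM per kilobase. In TLR7.1 RPM Rhd was highest at 89.9 CPM per kilobase, followed by Rhag at 49.0 and Slc4a1 at 48.7. These shares were not tested.

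**Figure D3:**
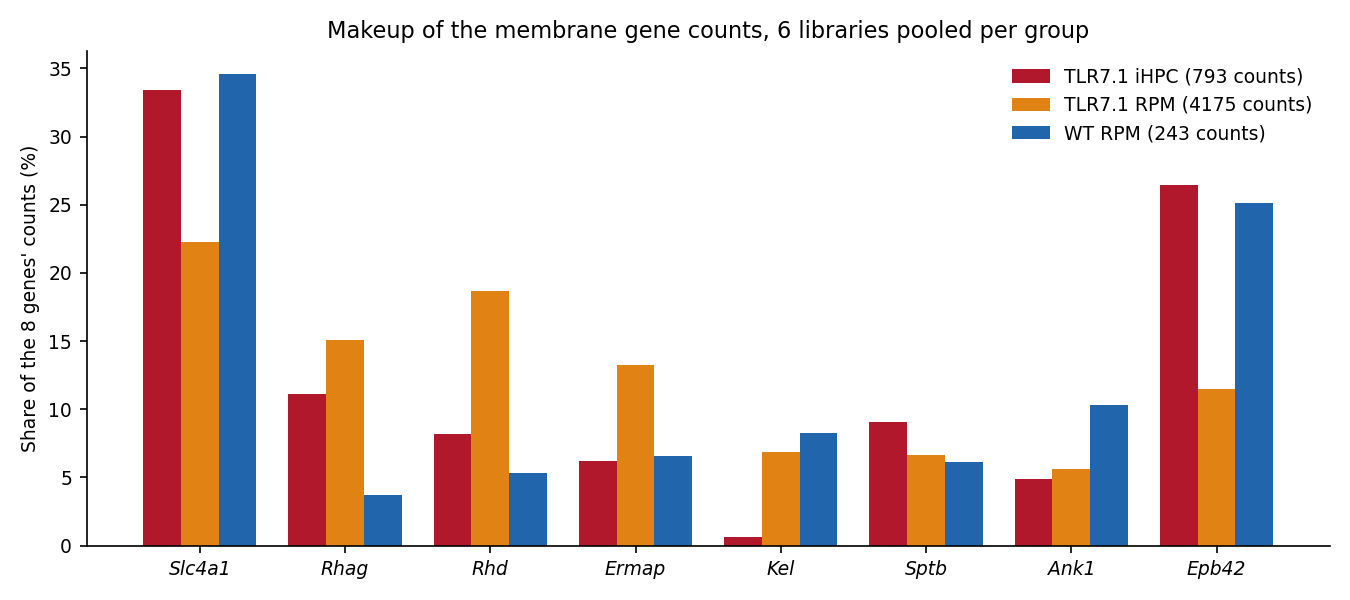
Share of the pooled reads of the 8 genes taken by each gene (vertical axis, %) in TLR7.1 iHPC, TLR7.1 RPM and WT RPM, from the summed reads given in the legend. Slc4a1 and Epb42 have the tallest bars in iHPC and WT RPM, and the Kel bar is almost absent in iHPC.

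Monocytes of the same spleens were near the floor for these genes. Of the 8 genes, 7 were called higher in iHPC than in TLR7.1 Mono and none lower, where 19.3% of all genes tested were called higher and 38.7% in either direction. For Slc4a1 and Epb42 every iHPC library exceeded every TLR7.1 Mono library, 2 of the 8, against 14.2% of all genes tested. Slc4a1 reached at most 1.802 CPM in TLR7.1 Mono, with a log2 fold change of 6.92 ± 0.850 (edgeR adjusted p = 5.4e-08), and on 265 iHPC reads against 3 Mono reads the pooled ratio was 133 (95% counting interval 45.0 to 649).

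Epb42 reached at most 4.51 CPM in TLR7.1 Mono (log2 fold change 5.71 ± 0.986, edgeR adjusted p = 1.84e-05). Kel, with 5 reads in iHPC and 1 in TLR7.1 Mono, gave a pooled ratio of 7.53 with a counting interval of 0.842 to 356 and was not called (edgeR adjusted p = 0.153). Rhd (log2 fold change 2.72, edgeR adjusted p = 0.0162) and Ank1 (3.07, edgeR adjusted p = 0.0169) lost their calls without mouse 24068, and Ank1 also without mouse 24380. Rhd was not called by limma-voom with the mouse as a random term (adjusted p = 0.0603) or by DESeq2 (adjusted p = 0.0769) either. All 8 genes were higher in TLR7.1 RPM than in TLR7.1 Mono, where 23.9% of all genes tested were called higher and 46.6% in either direction. For all 8 every TLR7.1 RPM library exceeded every TLR7.1 Mono library, against 12.6% of all genes tested, and the log2 fold changes lay between 5.22 ± 0.907 for Sptb and 9.06 ± 0.838 for Slc4a1.

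The same populations of WT mice differed in the same direction on far fewer reads. In WT RPM against WT Mono 7 of 8 genes were called higher, where 23.7% of all genes tested were called higher and 46.2% in either direction. Each of the 8 overlapped between the groups, against 11.1% of all genes tested that did not. Within mice, RPM exceeded Mono in 5 of 6 for Slc4a1, in 4 for Rhd and Epb42, and in 3 for Rhag, Ermap and Ank1. Kel was higher in 2 mice, and Sptb was higher in 2 and lower in 2. Rhd, Ermap and Epb42 were each lower in RPM in 1 mouse. The sum of the 8 was higher in 5 mice and lower in 1. With the WT groups alone these genes did not pass the filter on low counts. Slc4a1 had 84 reads in WT RPM and 4 in WT Mono (log2 fold change 5.65 ± 0.876, edgeR adjusted p = 2.57e-06). Rhag, Kel and Ank1 had 0 reads in all 6 WT Mono libraries. Set against a floor of 3 reads over that group, WT RPM were 7.51-fold, 16.7-fold and 20.9-fold higher. The 95% lower counting limits, taken with the 0 reads themselves, were 4.94, 12.4 and 15.8. Of the reads 4 of 9 for Rhag and 15 of 20 for Kel came from mouse 24117, and 15 of 25 for Ank1 from mouse 24028. Without that library the ratios to the floor were 7.29-fold, 7.29-fold and 9.94-fold.

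Rhd was not called in WT mice (log2 fold change 2.60 ± 1.26, edgeR adjusted p = 0.0897). With the mouse as a block it was (adjusted p = 0.0131), and Ermap (adjusted p = 0.0539) and Sptb (adjusted p = 0.154) were not, though both were called without the block at adjusted p = 0.029 and 0.04. Sptb rested on 1 animal: without mouse 24214 its log2 fold change was 0.88 instead of 2.74.

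No member was called between TLR7.1 Mono and WT Mono, where 2.1% of all genes tested were called in edgeR, and DESeq2 and limma-voom called 0 as well. At an unadjusted p under 0.05 the count was 1, Rhag, with 10 reads in TLR7.1 Mono and 0 in WT Mono. That is 3.27-fold higher against a floor of 3 reads (95% lower counting limit 2.20). Of the 10 reads 8 came from mouse 24261, and the 2 without it lie under the floor and give no ratio. Slc4a1, with the most reads of the 8 in the macrophages, had 3 reads in TLR7.1 Mono and 4 in WT Mono, a pooled ratio of 0.736 (95% counting interval 0.108 to 4.35). That interval covers counting error only and leaves out the spread between mice. So few reads cannot show whether Slc4a1 differed between the genotypes in Mono. The genotype effect in RPM and that in Mono were tested against each other as well. In edgeR 0 of 8 genes passed, where 0.689% of all genes tested were called, and 2 had an unadjusted p under 0.05 (Ermap and Rhd). Limma-voom called 2 of the 8 and 1.49% of all genes tested. DESeq2 called 0 of the 8 and 1.89% of all genes tested. A larger genotype effect in RPM than in Mono is therefore not shown for single genes by edgeR or DESeq2. Mono held only 59 (TLR7.1) and 28 (WT) reads of the 8. In edgeR the SEs of Rhag (4.94) and Kel (8.27) were larger than their log2 differences of 2.14 and 2.74.

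Markers of erythroid cells outside the membrane were measured beside these genes, since the phagocytes can engulf erythroid cells or carry them attached. Of 26 listed, 22 were in the table and 20 were tested. Their summed level ran from 1721 to 4219 CPM in iHPC, from 4225 to 8404 CPM in TLR7.1 RPM, from 908 to 1303 CPM in TLR7.1 Mono, from 947 to 7408 CPM in WT RPM and from 782 to 1096 CPM in WT Mono. The monocyte sums include Prdx2, Fech, Cpox and Nfe2, which monocytes also expressed. Hbq1b, Gata1 and Trim58 were at 0 in TLR7.1 Mono, and Hbq1a, Hbq1b and Trim58 were at 0 in WT Mono. None was at 0 over a whole group of iHPC or RPM.

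Between TLR7.1 and WT RPM, 12 of the 20 markers were higher and none lower. Among them were the erythroid regulators Klf1 (log2 fold change 3.55 ± 0.749, edgeR adjusted p = 0.00268), Tal1 (3.44 ± 0.817, adjusted p = 0.00714) and Gfi1b (3.44 ± 0.834, adjusted p = 0.00854), and Trim10 (3.26 ± 0.602, adjusted p = 7.21e-04). The 4 adult globin genes were not: the log2 fold change of Hbb-bs was 0.00 ± 0.686, that of Hba-a1 -0.06 ± 0.591, that of Hba-a2 -0.07 ± 0.690 and that of Hbb-bt 0.23 ± 0.707 (edgeR adjusted p from 0.891 to 1). The globin copies are near-identical, and the split of reads within each pair is uncertain. Their SEs allow changes of more than 1 log2 unit either way.

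In iHPC against TLR7.1 RPM, 10 of the 20 markers were lower and none higher. The largest falls were those of Epor, the erythropoietin receptor (log2 fold change -7.23 ± 0.676, edgeR adjusted p = 3.55e-10), Tal1 (-5.52 ± 0.885, adjusted p = 1.01e-05), Klf1 (-4.83 ± 0.780, adjusted p = 1.15e-05) and Car1, a red cell carbonic anhydrase (-3.90 ± 0.953, adjusted p = 0.00248). Epor was also high in WT RPM over WT Mono, by a log2 value of 8.24 ± 0.682 (adjusted p = 5.88e-12), and did not move with the genotype in RPM (-0.06 ± 0.422, adjusted p = 0.959). Alas2, the first enzyme of erythroid heme synthesis, was not called in iHPC against RPM (0.14 ± 0.563, adjusted p = 0.894), nor were Hbb-bs (-0.42 ± 0.670, adjusted p = 0.7) and Hba-a1 (-0.55 ± 0.576, adjusted p = 0.535).

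Set against these markers, the membrane genes were not in 1 ratio. Per 100 CPM of globin RNA the 8 genes made 12.0 CPM in iHPC, 52.7 CPM in TLR7.1 RPM and 5.24 CPM in WT RPM. Per library this ran from 4.31 to 24.4 in iHPC, from 27.1 to 131.8 in TLR7.1 RPM and from 0 to 10.5 in WT RPM, so that TLR7.1 RPM overlapped with neither. Per 100 CPM of the other erythroid markers the values were 8.65 CPM in iHPC, 21.5 CPM in TLR7.1 RPM and 6.48 CPM in WT RPM. Per library they ran from 2.35 to 16.3 in iHPC, from 14.7 to 31.2 in TLR7.1 RPM and from 0 to 9.95 in WT RPM, so that TLR7.1 RPM overlapped with iHPC but not with WT RPM. These other markers include Prdx2, Fech, Cpox and Nfe2, and their sum still ran from 760.5 to 866 CPM in WT Mono. The second ratio is therefore not taken to erythroid RNA alone. The part of engulfed or attached erythroid cells in the membrane gene levels was not tested.

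**Figure D4:**
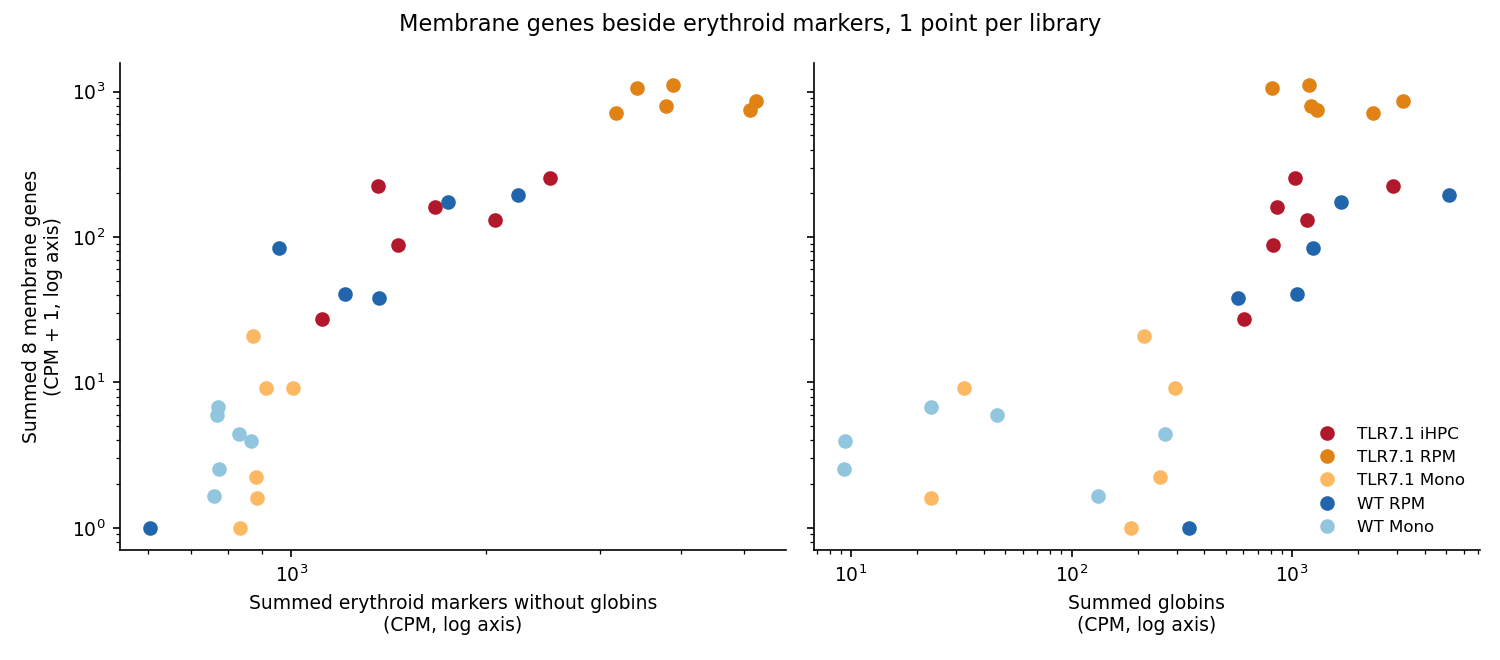
Summed level of the 8 membrane genes (vertical axis, CPM + 1, log axis) against the summed erythroid markers without globins (left) and the summed globins (right), both in CPM on a log axis, with 1 point per library. TLR7.1 RPM lie above the rest at globin sums that iHPC and WT RPM libraries also reach.

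Markers of other cells moved too. Of 10 proliferation genes, 8 were higher in TLR7.1 than in WT RPM, led by Cenpf (log2 fold change 3.19 ± 0.547, edgeR adjusted p = 3.28e-04), and all 10 were higher in TLR7.1 than in WT Mono. Their sum ran from 909 to 2159 CPM in TLR7.1 RPM and from 71.7 to 594 CPM in WT RPM. It ran from 1390 to 2665 CPM in TLR7.1 Mono and from 105.5 to 449 CPM in WT Mono. Of 6 platelet genes tested, 4 were higher in TLR7.1 than in WT RPM and edgeR called none between iHPC and TLR7.1 RPM. There 3 of the 6 had an unadjusted p under 0.05, DESeq2 called 0 and limma-voom called 4. The sum of the 10 platelet genes listed ran from 175 to 324 CPM in iHPC, from 12.0 to 139 CPM in TLR7.1 RPM, from 2.46 to 33.2 CPM in TLR7.1 Mono, from 17.2 to 93.6 CPM in WT RPM and from 9.16 to 36.9 CPM in WT Mono, with Gp6 at 0 in all groups but iHPC.

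Of 8 B cell genes, 6 were lower in iHPC than in TLR7.1 RPM. None was called by edgeR between TLR7.1 and WT RPM, where 1 had an unadjusted p under 0.05 and DESeq2 and limma-voom called 1 each. Their sum ran from 194 to 580.4 CPM in iHPC, from 341 to 1486 CPM in TLR7.1 RPM and from 129 to 961 CPM in WT RPM. Of 4 T cell genes tested, 3 were lower in iHPC than in TLR7.1 RPM. None was called by edgeR between TLR7.1 and WT RPM, where 1 had an unadjusted p under 0.05 and DESeq2 and limma-voom called 0. The sum of the 8 listed ran from 3.36 to 116 CPM in iHPC, with Cd3e, Cd5 and Cd28 at 0, from 4.12 to 1277 CPM in TLR7.1 RPM and from 0 to 233 CPM in WT RPM. Both tested basophil and mast cell genes were higher in iHPC than in TLR7.1 RPM. The sum of the 6 listed ran from 2.78 to 3073 CPM in iHPC and from 0 to 5.21 CPM in TLR7.1 RPM, with Cpa3, Ms4a2, Hdc and Gata2 at 0 in TLR7.1 RPM. All 10 red pulp macrophage markers were lower in iHPC than in TLR7.1 RPM, and 1 of the 10 was lower in TLR7.1 than in WT RPM. The part of proliferating cells and of these other cells in the membrane gene levels was not tested.

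Other genes of the red cell membrane gave a mixed picture. Of 11 further blood group and surface genes tested, 8 were higher in TLR7.1 than in WT RPM and none lower, with a median log2 difference of 2.22. Art4, which bears the Dombrock antigens, had a log2 fold change of 3.94 ± 1.11 (edgeR adjusted p = 0.0255), Xk, the partner of Kel, 3.23 ± 1.04 (adjusted p = 0.0483), Gypc, glycophorin C, 2.69 ± 0.467 (adjusted p = 3.61e-04) and Tfrc, the transferrin receptor, 2.44 ± 0.409 (adjusted p = 2.54e-04). Unlike the 8 members, Gypc had higher medians in Mono, 67.1 CPM (TLR7.1) and 86.3 CPM (WT), than the 51.8 CPM of TLR7.1 RPM. In iHPC against TLR7.1 RPM 8 of the 11 were lower, led by Art4 (-3.77 ± 0.984, adjusted p = 0.00441), and 1 was higher, Cd47 (0.48 ± 0.125, adjusted p = 0.00351).

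Of 12 further transporters and channels, 6 were higher in TLR7.1 than in WT RPM and none lower, with a median log2 difference of 1.39. The amino acid transporter Slc43a1 led (5.13 ± 0.851, edgeR adjusted p = 3.3e-04), before the water channel Aqp1 (3.66 ± 0.913, adjusted p = 0.0139) and the calcium pump Atp2b4 (3.16 ± 0.787, adjusted p = 0.0104). In iHPC against TLR7.1 RPM 8 of the 12 were lower and none higher, led by Aqp1 (-5.71 ± 0.968, adjusted p = 7.4e-05). Of 10 further skeleton genes, 2 were higher in TLR7.1 than in WT RPM, among them the scaffold protein gene Mpp1 (1.01 ± 0.209, adjusted p = 0.00242). Mpp1 too had higher medians in Mono, 396 CPM (TLR7.1) and 421 CPM (WT), than the 247 CPM of TLR7.1 RPM. In iHPC 5 of the 10 were lower, led by Dmtn (-4.97 ± 0.847, adjusted p = 4.37e-05), and Add3, an adducin, was higher (2.03 ± 0.327, adjusted p = 1.14e-05).

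Relatives of the 8 genes used outside the red cell lineage were read too. Of 9 tested, none was called by edgeR between TLR7.1 and WT RPM, where the median log2 difference was -0.35. At an unadjusted p under 0.05 the edgeR count was 2 of the 9, DESeq2 called 0 and limma-voom called 1. In iHPC against TLR7.1 RPM 3 were lower, led by Ank2 (-7.22 ± 1.37, adjusted p = 1.65e-04), and the bicarbonate transporter Slc4a7 was higher (1.18 ± 0.392, adjusted p = 0.0223).

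**Figure D5:**
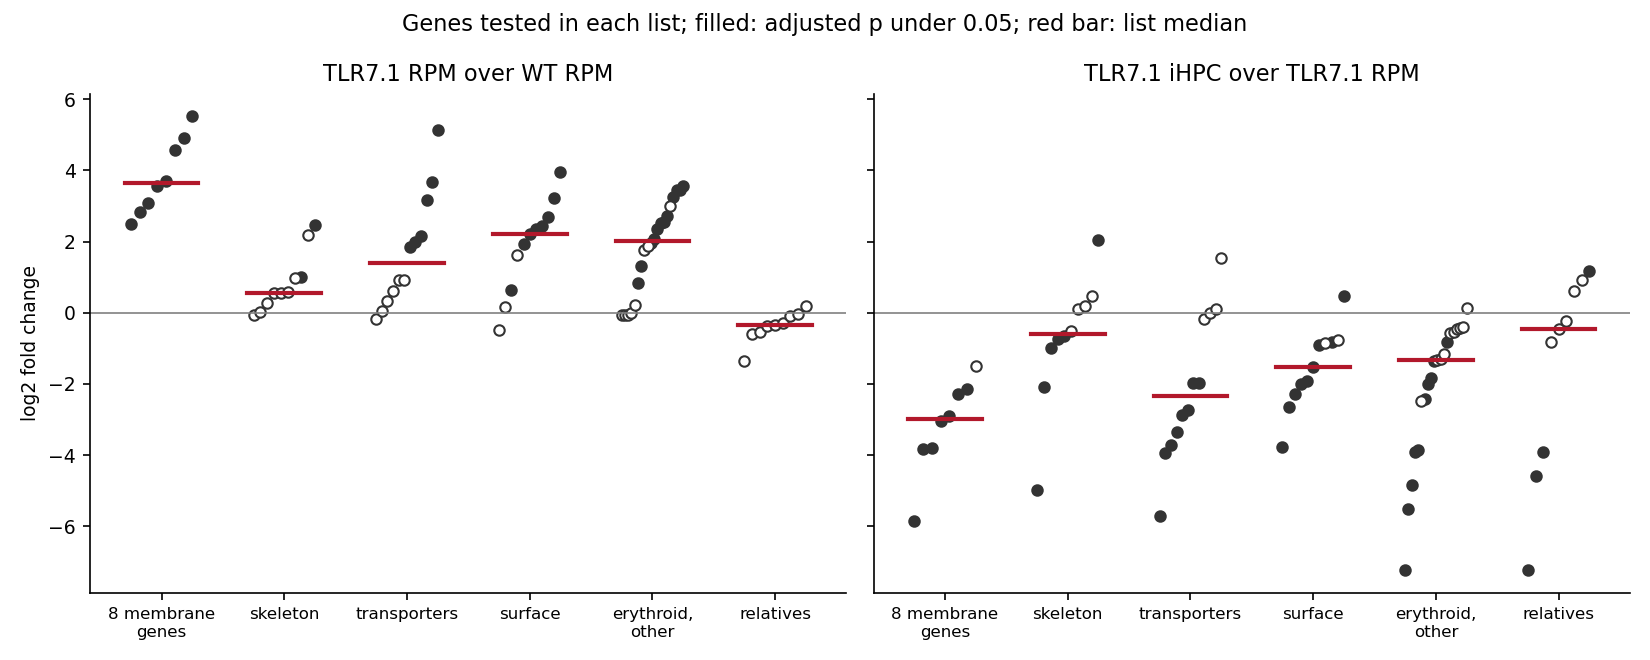
Log2 fold change (vertical axis) of every gene tested in 6 lists (horizontal axis) for TLR7.1 RPM over WT RPM (left) and TLR7.1 iHPC over TLR7.1 RPM (right), filled where the edgeR adjusted p was under 0.05, with a red bar at the list median. On the left the 8 membrane genes have the highest median, 3.63, and the relatives outside the lineage one of -0.35.

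The genes whose levels ran most like the mean of the 8 over the 30 libraries were red cell genes in part. Over 9737 genes ranked by Pearson r of log2(CPM + 1), among the first 10 were Pdzk1ip1 (0.946), Slfn14 (0.942), Slc43a1 (0.930), Nxpe2 (0.929), Trim10 (0.922), Tspo2 (0.918), Tspan8 (0.909), Slc25a37, the mitochondrial iron importer (0.895), and Prdx2, an abundant red cell peroxiredoxin (0.895). These points share libraries and groups, and r is given as a description. The 8 genes themselves ran together: each correlated with the mean of the other 7 at an r of 0.823 (Kel) to 0.933 (Rhag). Pdzk1ip1 had a median of 22.4 CPM in iHPC, 151 CPM in TLR7.1 RPM, 0 CPM in TLR7.1 Mono, 6.69 CPM in WT RPM and 0 CPM in WT Mono.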

How the data were processed

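RNA from 500 sorted cells per library was turned into full-length cDNA with the SMART-Seq v4 kit and made into libraries with Nextera XT, per the labels' protocols. The submitters' processing notes list HTSeq 0.4.1, TopHat, Bowtie, SAMtools, CASAVA 1.8.2, Picard and FastQC beside the build NCBIM37. Neither the strand setting nor the annotation release is named there. Whole reads were counted per Ensembl gene by the authors, and these raw counts were deposited without normalization. Of its 37991 identifiers 20439 held a count, and 0 columns lacked a sample.

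Symbols and exon lengths were joined by identifier from GENCODE M21 (GRCm38), which covered 99.11% of the counts, and promoters came from RefSeq (GRCm38.p6). Levels are CPM, the counts divided by library totals scaled by TMM. Genes were kept by filterByExpr with the 5 groups (11030 genes), and 1 quasi-likelihood model with robust dispersion took in all 30 libraries, in R 4.3.3 with edgeR 4.0.16 (limma 3.58.1 for voom). P-values are two-sided with Benjamini-Hochberg adjustment over all genes tested, and calls need an adjusted p under 0.05. An SE is the log2 fold change divided by the root of its F value. Pooled ratios carry exact 95% binomial intervals, which cover counting error only, since the reads have no molecular identifiers. The fit was tested on simulated data.

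Libraries of 1 mouse are paired by the mouse named in the labels. Correlations of their deviations from the group means ran from -0.0795 to 0.196. The model left the mouse out, and alternatives included it.

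The 8 genes, the gene lists and the tests were chosen with earlier results of these data known. Genes are named by rule: the 8 members, up to 4 called genes of a list with the largest change and the largest called change the other way, and the 10 genes most alike in level. Alas2, the globins, the further Epor values and the levels of Pdzk1ip1 were added after their values were seen. The listed genes Hbb-b1, Hbb-b2, Ahsp, Rhex and Rhbg were not used here, and some genes counted in the lists are not reported here by name. Alternatives were RLE factors, library totals, other filters, a mouse block, a date term, fewer groups, thinning, DESeq2 1.42.0, limma-voom and leaving out each mouse or the libraries under 300000 counts.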

Additional observations from a re-analysis of the deposited data

Results flagged for a closer look

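Of 40 groups of 6 libraries (8 genes in 5 groups), 15 held a highest library whose gap to the next took up more of the group's range than Dixon's 95% critical value, and chance flags about 1 in 20 groups. Most of these groups sat near 0, where a single library with a few reads makes such a gap.

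In iHPC, mouse 24261 was highest for Rhag, at 49.0 CPM against 17.6 CPM in the next library, and for Sptb, at 24.1 CPM against 11.1 CPM. Rhag in TLR7.1 RPM was highest in mouse 24107, at 275 CPM on 355 reads, against 118 CPM in the next.

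In TLR7.1 Mono the highest libraries were mouse 24380 for Slc4a1 (1.802 CPM, 2 reads) and Epb42 (4.51 CPM, 5 reads), mouse 24261 for Ermap (2.40 CPM, 4 reads) and Sptb (7.79 CPM, 13 reads), mouse 24107 for Kel (0.616 CPM, 1 read) and mouse 24308 for Ank1 (4.08 CPM, 7 reads).

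In WT RPM the shallowest library, mouse 24323, was highest for Rhd (53.5 CPM, 5 reads) and Ermap (42.8 CPM, 4 reads), and mouse 24214 was highest for Sptb (21.6 CPM, 12 reads). In WT Mono the highest were mouse 24323 for Rhd (4.18 CPM, 5 reads), mouse 24028 for Ermap (3.42 CPM, 4 reads) and mouse 24415 for Epb42 (3.84 CPM, 6 reads).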

How the results depend on the processing

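In the 4 comparisons of populations and in TLR7.1 against WT RPM, no fold change of the 8 genes reversed under any alternative run; fold changes of the other 2 comparisons were not followed. Leaving out 1 mouse at a time kept 448 of 480 gene results on their side of the threshold, and 32 lost a call. Each of the 12 mice was left out for every comparison. In a comparison within 1 genotype, leaving out a mouse of the other acts only through the shared filter, scaling and spread. With 1 mouse left out, 6 to 7 members were called in iHPC against RPM and 5 to 7 in iHPC against Mono. In TLR7.1 RPM against Mono 8 were called throughout, and 5 to 7 in WT RPM against Mono. TLR7.1 against WT RPM had 6 to 8, and the other 2 comparisons 0. Among populations 22.5% to 28%, 32.1% to 39.3%, 40.7% to 47% and 40.4% to 47.8% of all genes were called, in that order. For TLR7.1 against WT RPM the share was 5.22% to 12.1%. Of 462 other gene results, 433 kept their side, 25 lost a call and 4 gained one. Thinning every library to 95002 counts left 1 member past the filter, called in all 4 comparisons of populations and in TLR7.1 against WT RPM. Of all genes tested there 25.4%, 39.1%, 47.5%, 50% and 6.04% were called, in the order above. With the genes of the full filter kept, an alternative chosen after seeing the data, thinning left 2 of 8 in WT RPM against Mono, where 31.1% of all genes were called. With the compared groups alone, fewer members passed the filter: 2 of 2 were called in iHPC against Mono, 5 of 7 in TLR7.1 against WT RPM, and 0 of 0 in WT RPM against Mono, with 54.2%, 2.01% and 47% of all genes called. With the genes of the full filter kept, also chosen after seeing the data, these counts were 7, 6 and 5 of 8, with 51.8%, 1.44% and 45.3% of all genes called. With the mouse as a replicate block 7, 7 and 8 members were called in the 3 TLR7.1 comparisons of populations. There 25.4%, 37% and 45.4% of all genes were called. The block fit called 6 members in WT RPM against Mono, with 44.9% of all genes called. For the genotype effect in RPM against Mono it called 0, with 0.571% of all genes called. The limma-voom fit with the mouse as a random block called 2 for that genotype effect, with 1.49% of all genes called. The comparisons between genotypes cannot hold a mouse block. The monocyte and WT RPM values rest on only 28 to 243 reads over the 8 genes. In Mono these few reads came from libraries with totals of 1157446 counts or more. WT RPM totals went down to 95002 counts.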
